A study of Mus musculus with 16 samples.

Results

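The metallothioneins Mt1, Mt2 and Mt3 were measured in mouse aorta by RNA sequencing of messenger RNA. They were taken from the count table by their gene symbols, which gave 3 of its 54532 genes. All mice were C57BL/6J, and 16 libraries, 1 per animal, fell into 4 groups of 4. Mice with 5/6 nephrectomy (5/6 Nx), an operation that removes most kidney tissue and models chronic kidney disease, received a diet with 2% phosphorus and 2.5% protein (5/6 Nx-HPi-Lp), 2% phosphorus and 18% protein (5/6 Nx-HPi-Hp), or 0.3% phosphorus and 2.5% protein (5/6 Nx-LPi-Lp). Sham mice, which underwent surgery without loss of kidney tissue, were fed as 5/6 Nx-HPi-Lp mice were, with 2% phosphorus and 2.5% protein. The diets were given for 30 days per the labels. Only male mice were used in the study. Sham and 5/6 Nx-HPi-Lp mice therefore differed by the operation, while the 5/6 Nx groups differed by protein or by phosphorus in the food. The study asked which combination of kidney loss, phosphorus and protein calcifies the artery, and 5/6 Nx-HPi-Lp was its calcification group.

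Metallothioneins are small cysteine-rich proteins that bind zinc and copper, and also cadmium when it is present. Mt1 and Mt2 are made in most tissues. Their transcription is raised by zinc through the metal-responsive factor Mtf1, which binds short metal response elements (MREs), and also by glucocorticoids, by interleukin-6 acting through Stat3, and by oxidative stress. Mt3 is known mainly from neurons and other cells of the nervous system, is described as growth inhibitory there, and responds little to metals. The remaining gene of the cluster, Mt4, belongs to stratified squamous epithelium.

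The 4 genes lie side by side on the plus strand of mouse chromosome 8 (mm10) in the order Mt4, Mt3, Mt2 and Mt1, within 43131 bases. Mt3 (ENSMUSG00000031760) runs from 94152607 to 94154146, Mt2 (ENSMUSG00000031762) from 94172664 to 94173568, and Mt1 (ENSMUSG00000031765) from 94179082 to 94180327. Only 5513 bases separate Mt2 from Mt1, against 18517 between Mt3 and Mt2. The main transcript of each member has 3 exons, of 549 spliced bases for Mt1, 511 for Mt2 and 536 for Mt3. In the table Mt1 has a length of 1246 bases, because an annotated transcript that retains introns is counted with it. Mt3 likewise has a length of 1066 bases, taken over its 3 annotated transcripts. These lengths lower the levels of both Mt1 and Mt3 per kilobase.

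The start regions of the members are shown because Mt1 and Mt2 were highest in the same libraries and share the metal response elements for which these genes are known. Each sequence comes from RefSeq (GRCm38.p6) and holds 250 bases before and 50 bases after the RefSeq start, on the plus strand, 5′ to 3′. Capitals mark MRE cores, searched as TGCACNC or TGCGCNC on both strands. A match on the minus strand appears in its reverse complement. The windows were chr8:94178839-94179138 for Mt1, chr8:94172368-94172667 for Mt2 and chr8:94152357-94152656 for Mt3.
Mt1: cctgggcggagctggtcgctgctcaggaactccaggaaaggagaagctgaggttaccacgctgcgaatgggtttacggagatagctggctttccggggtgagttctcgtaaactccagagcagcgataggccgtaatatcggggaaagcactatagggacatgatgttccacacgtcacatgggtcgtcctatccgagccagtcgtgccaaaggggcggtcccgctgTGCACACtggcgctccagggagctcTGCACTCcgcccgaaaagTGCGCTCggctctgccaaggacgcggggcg
Mt2: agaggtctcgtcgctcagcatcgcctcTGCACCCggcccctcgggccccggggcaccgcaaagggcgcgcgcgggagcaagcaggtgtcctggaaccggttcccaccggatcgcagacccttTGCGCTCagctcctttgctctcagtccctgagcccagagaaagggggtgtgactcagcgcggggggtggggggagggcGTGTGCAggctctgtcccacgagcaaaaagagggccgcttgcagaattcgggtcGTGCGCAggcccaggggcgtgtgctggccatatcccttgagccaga
Mt3: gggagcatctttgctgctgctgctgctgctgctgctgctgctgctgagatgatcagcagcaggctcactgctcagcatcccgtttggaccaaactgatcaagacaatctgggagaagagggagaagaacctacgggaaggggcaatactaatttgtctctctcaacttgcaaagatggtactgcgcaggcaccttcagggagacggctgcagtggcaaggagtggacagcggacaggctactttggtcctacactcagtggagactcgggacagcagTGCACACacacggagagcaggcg
Mt1 held 3 cores, which began at bases −23, 2 and 20, the start being 0. Mt2 held 4, beginning at bases −223, −128, −50 and 4. Mt3 held 1, which began at base 27. Of 32851 promoters of the same length, 25.7% held at least 1 such core, 1.97% at least 3 and 0.517% at least 4. The Mt2 window also held 1 antioxidant response element, searched as TGACNNNGC on both strands, against 12.4% of all promoters. Mt1 and Mt3 had no match to it. The letters of this element and of the MRE cores did not overlap in Mt2. Other annotated transcripts begin past the ends of these windows, where no search was made. They start at 94179211 and 94179241 for Mt1, 94172860 for Mt2 and 94152746 for Mt3. The offsets and counts of cores thus hold for the RefSeq starts only. These matches describe the letters of the windows and do not show binding.

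Library totals ranged from 13659525 to 57276915 counts, and the 2 deepest were both 5/6 Nx-HPi-Lp (replicate 2 with 57276915 and replicate 3 with 46499243). Mitochondrially encoded genes took 4.18 to 6.34% of counts in Sham, 19.3 to 27.1% in 5/6 Nx-HPi-Lp, 9.50 to 29.0% in 5/6 Nx-HPi-Hp and 14.2 to 21.1% in 5/6 Nx-LPi-Lp. Smooth muscle markers, 6 genes that define the aortic media, summed to 21670 to 25740 CPM (counts scaled to a common library total) in Sham, which fits the tissue label, and to 2223 to 5034 CPM in 5/6 Nx-HPi-Lp. All 6 were lower in 5/6 Nx-HPi-Lp than in Sham, and all 6 macrophage markers were higher (154 to 247 CPM against 547 to 1918 CPM). The aorta is a mixture of cells, so fewer or more cells of a type and less or more RNA per cell cannot be told apart in any value given here. The part of this shift in the metallothionein values was not tested.

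Mt1 was the member with by far the most reads, with 2026 to 55525 counts per library and 0.0114 to 0.0969% of all counts. Its levels, as CPM after scaling of the libraries, were 137, 227, 313 and 172 in Sham and 362, 969, 951 and 587 in 5/6 Nx-HPi-Lp. They were 176, 247, 239 and 111 in 5/6 Nx-HPi-Hp and 246, 314, 213 and 153 in 5/6 Nx-LPi-Lp. Every 5/6 Nx-HPi-Lp library lay above all 12 others, and the other 3 groups overlapped each other. The group means were 717 ± 295 CPM in 5/6 Nx-HPi-Lp, 232 ± 67.2 in 5/6 Nx-LPi-Lp, 212 ± 76.9 in Sham and 193 ± 63.5 in 5/6 Nx-HPi-Hp (SD, n = 4 each). The 3 lower groups did not differ beyond their spread.

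Mt2 had few reads outside 5/6 Nx-HPi-Lp. Its counts were 14, 20, 17 and 20 in Sham, 9, 4, 12 and 11 in 5/6 Nx-HPi-Hp, and 10, 26, 4 and 3 in 5/6 Nx-LPi-Lp, against 78, 762, 594 and 72 in 5/6 Nx-HPi-Lp. Scaled to CPM these were 0.539, 0.874, 0.767 and 0.791 in Sham and 4.92, 13.3, 13.1 and 4.64 in 5/6 Nx-HPi-Lp. The 5/6 Nx-HPi-Lp libraries were again above all others, and their replicates 2 and 3, which were highest in Mt1, were also highest in Mt2. Levels were 0.484, 0.327, 0.900 and 0.601 CPM in 5/6 Nx-HPi-Hp and 0.542, 1.63, 0.291 and 0.143 CPM in 5/6 Nx-LPi-Lp. The group means were 8.99 ± 4.87 CPM in 5/6 Nx-HPi-Lp, 0.743 ± 0.143 in Sham, 0.652 ± 0.674 in 5/6 Nx-LPi-Lp and 0.578 ± 0.242 in 5/6 Nx-HPi-Hp (SD, n = 4 each). The last 3 of these did not differ beyond their spread.

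Mt3 was low in most libraries. It had 12, 10, 7 and 2 counts in Sham and 199, 72, 106 and 108 in 5/6 Nx-HPi-Lp, which were 0.462, 0.437, 0.316 and 0.0791 CPM and 12.5, 1.26, 2.34 and 6.97 CPM. Within 5/6 Nx-HPi-Lp its order was the opposite of that of Mt1, with replicates 1 and 4 high and the deep replicates 2 and 3 low. Levels were 1.24, 0.245, 0 and 2.41 CPM in 5/6 Nx-HPi-Hp and 0.542, 0.628, 0.655 and 1.00 CPM in 5/6 Nx-LPi-Lp. The library at 0 (5/6 Nx-HPi-Hp replicate 3) had 14388190 counts in all, and an observed count of 0 still allows an expected count of up to about 3 at that depth. Mt3 averaged 5.78 ± 5.15 CPM in 5/6 Nx-HPi-Lp, 0.972 ± 1.10 in 5/6 Nx-HPi-Hp, 0.706 ± 0.202 in 5/6 Nx-LPi-Lp and 0.324 ± 0.175 in Sham (SD, n = 4 each). 5/6 Nx-HPi-Hp overlapped both 5/6 Nx-HPi-Lp and the lower groups. Mt4, the squamous epithelial member of the cluster, had 1 count in 1 library and 0 in the other 15.

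**Figure D1:**
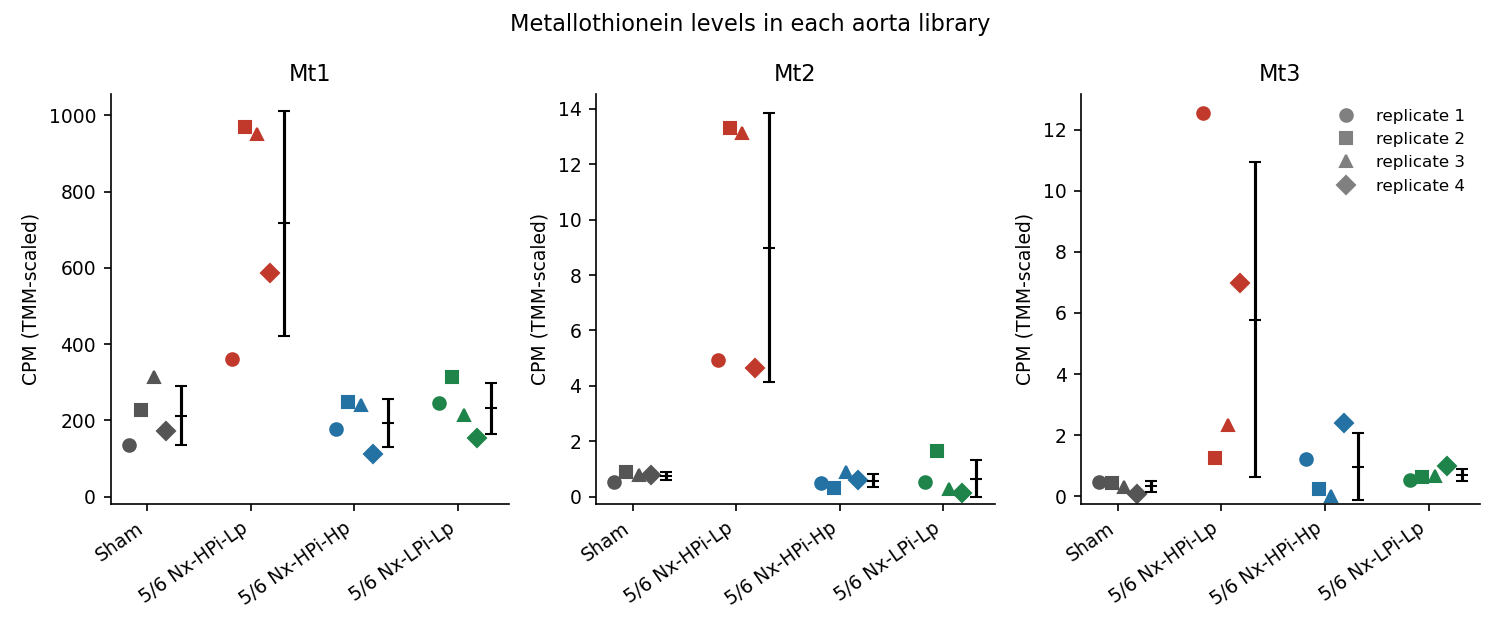
Levels of Mt1, Mt2 and Mt3 (CPM after scaling, linear axes from 0) in each of the 16 aorta libraries, with a marker for each replicate and bars for mean ± SD (n = 4). Replicates 2 and 3 of 5/6 Nx-HPi-Lp top the Mt1 and Mt2 panels (951 to 969 and 13.1 to 13.3 CPM), while replicates 1 and 4 of that group top the Mt3 panel (12.5 and 6.97 CPM).

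The low level of Mt2 was bounded by how its reads could be counted. An antisense gene, Gm45774 (ENSMUSG00000110588), lies across it on the minus strand from 94170748 to 94173412. Its single exon of 2665 bases covers all of exons 1 and 2 of Mt2 (212 and 66 bases) and 77 of the 233 bases of exon 3. Thus 73.47% of the exonic bases of Mt2 lie under Gm45774, and 156 bases at its 3′ end are free. Of 453 genes whose exons are wholly covered by exons of the opposite strand, only 3 (0.662%) had any count in the 16 libraries, against 58.7% of 42763 genes without exonic overlap. Reads wholly in such stretches were thus nearly always given to neither gene, and the Mt2 counts are taken to come from reads that touch its last 156 bases. How reads only partly in the free stretch were counted was not tested. The level of Mt2 cannot be set against that of Mt1 or Mt3 for this reason. Differences of Mt2 between groups compare the same stretch in every library. Gm45774 itself passed the test in no comparison. It averaged 2.74 CPM in 5/6 Nx-HPi-Lp and 0.757 CPM in Sham, a log2 difference of 1.91 (SE 0.74, adjusted p = 0.0609 by the edgeR quasi-likelihood test, Benjamini-Hochberg adjusted).

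**Figure D2:**
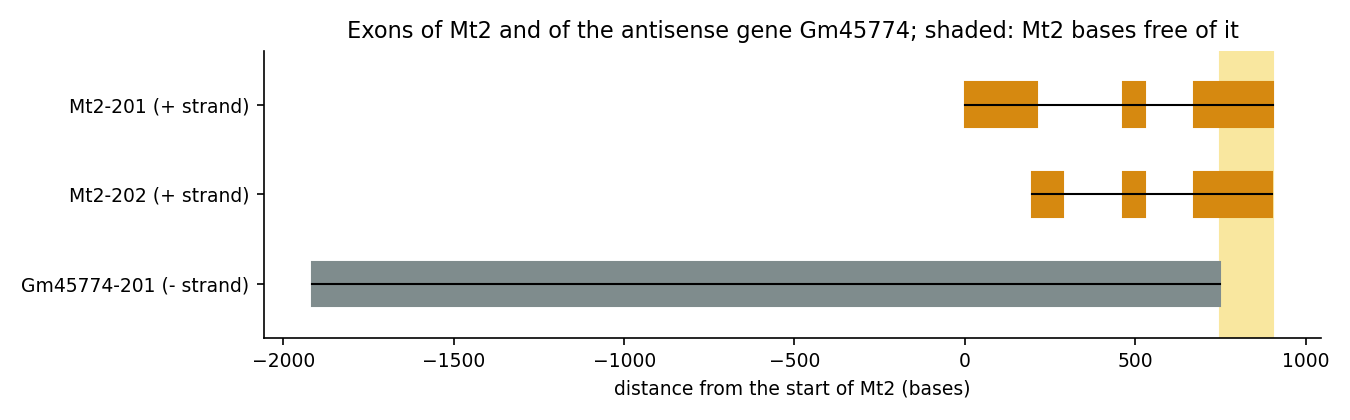
Exons (boxes) of both Mt2 transcripts on the plus strand and of Gm45774 on the minus strand, drawn to scale by distance in bases from the start of Mt2. The shaded stretch is the 156 bases of Mt2 outside the antisense exon, all of them in the last exon.

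Per kilobase, Mt1 and Mt3 could be compared by the deposited FPKM. Mt1 lay between 86.3 and 798 FPKM and Mt3 between 0 and 12.1 FPKM over the 16 libraries. The Mt1 level was 253 to 1866 times that of Mt3 in Sham libraries and 131 to 428 times in 5/6 Nx-LPi-Lp. In 5/6 Nx-HPi-Lp it was 24.7, 660, 348 and 72.1 times that of Mt3 in replicates 1 to 4. Mt1 was thus the more abundant of this pair in every library. In 5/6 Nx-HPi-Hp the ratio was 39.4 to 863 in 3 libraries, with Mt3 listed at 0 in the other. The ratios of 1866 (Sham replicate 4) and 863 (5/6 Nx-HPi-Hp replicate 2) rested on 2 and 3 Mt3 counts.

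Kidney loss on the same diet was addressed by 5/6 Nx-HPi-Lp against Sham, and all 3 members were higher in 5/6 Nx-HPi-Lp. A difference was called where the adjusted p did not exceed 0.05 and the log2 fold change was 1 or more in size. All 3 of 3 members were called higher, where 22.2% of the 16513 genes tested were called and 15% were called higher. The groups did not overlap for any member, as for 43% of all genes tested. By the edgeR quasi-likelihood test, Benjamini-Hochberg adjusted over all genes, the log2 difference was 1.81 for Mt1 (SE 0.34, 3.50-fold, adjusted p = 0.00222). For Mt2 it was 3.65 (SE 0.44, 12.6-fold, adjusted p = 0.000184 from the same test), and for Mt3 4.19 (SE 0.81, 18.2-fold, adjusted p = 0.00263). These differences compare with a median of −0.003 over all genes. Without the 2 deep 5/6 Nx-HPi-Lp libraries all 3 calls held, with log2 differences of 1.22 for Mt1, 2.73 for Mt2 and 4.95 for Mt3. With the other 2 libraries of that group left out they also held, at 2.24, 4.21 and 2.52. The 2 deep libraries were the highest of their group in Mt1 and Mt2 and the lowest in Mt3. The direction of these shifts, here and in the comparisons below, thus followed from the split.

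Protein intake at high phosphorus was addressed by 5/6 Nx-HPi-Lp against 5/6 Nx-HPi-Hp, in which Mt1 and Mt2 were higher on the low-protein food. Here 2 of 3 members were called higher, against 5.01% of the 16198 genes tested (8.12% in either direction). Neither Mt1 nor Mt2 overlapped between the groups, as for 20.4% of all genes. Mt1 differed by 1.89 on the log2 scale (SE 0.37, 3.70-fold, adjusted p = 0.0131) and Mt2 by 3.96 (SE 0.52, 15.6-fold, adjusted p = 0.00374) by the edgeR quasi-likelihood test, Benjamini-Hochberg adjusted. The log2 difference of Mt3 was 2.54 with a wide error (SE 1.03, adjusted p = 0.128 from that test), and the groups overlapped. DESeq2 called Mt3 on the same counts (2.57, adjusted p = 0.0292), as did edgeR with all 16 libraries in the fit (2.57, adjusted p = 0.0394). Without the 2 deep 5/6 Nx-HPi-Lp libraries the Mt1 difference was 1.28 and no longer called (adjusted p = 0.0817, edgeR), while Mt2 remained called at 3.02. With the other 2 libraries left out Mt1 (2.31) and Mt2 (4.51) were called and the Mt3 difference was 0.87.

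Phosphorus at low protein was addressed by 5/6 Nx-HPi-Lp against 5/6 Nx-LPi-Lp, and all 3 members were higher on the high-phosphorus food. The call took in 3 of 3 members, against 7.9% of the 16253 genes tested, and none overlapped, as for 24.7% of all genes. The log2 difference was 1.64 for Mt1 (SE 0.34, 3.11-fold, adjusted p = 0.0122), 3.81 for Mt2 (SE 0.73, 14.0-fold, adjusted p = 0.00874) and 3.00 for Mt3 (SE 0.70, 8.01-fold, adjusted p = 0.0181) by the edgeR quasi-likelihood test, Benjamini-Hochberg adjusted. These calls leaned on few libraries. Without the 2 deep 5/6 Nx-HPi-Lp libraries Mt1 (1.01, adjusted p = 0.0724) and Mt2 (2.85, adjusted p = 0.0516) were no longer called, and with the other 2 left out Mt3 was not (1.35, adjusted p = 0.151), all by edgeR. Leaving out 5/6 Nx-LPi-Lp replicate 3 alone also ended the Mt3 call (2.99, adjusted p = 0.056, edgeR). These 3 comparisons share the 5/6 Nx-HPi-Lp libraries and are not independent of each other.

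**Figure D3:**
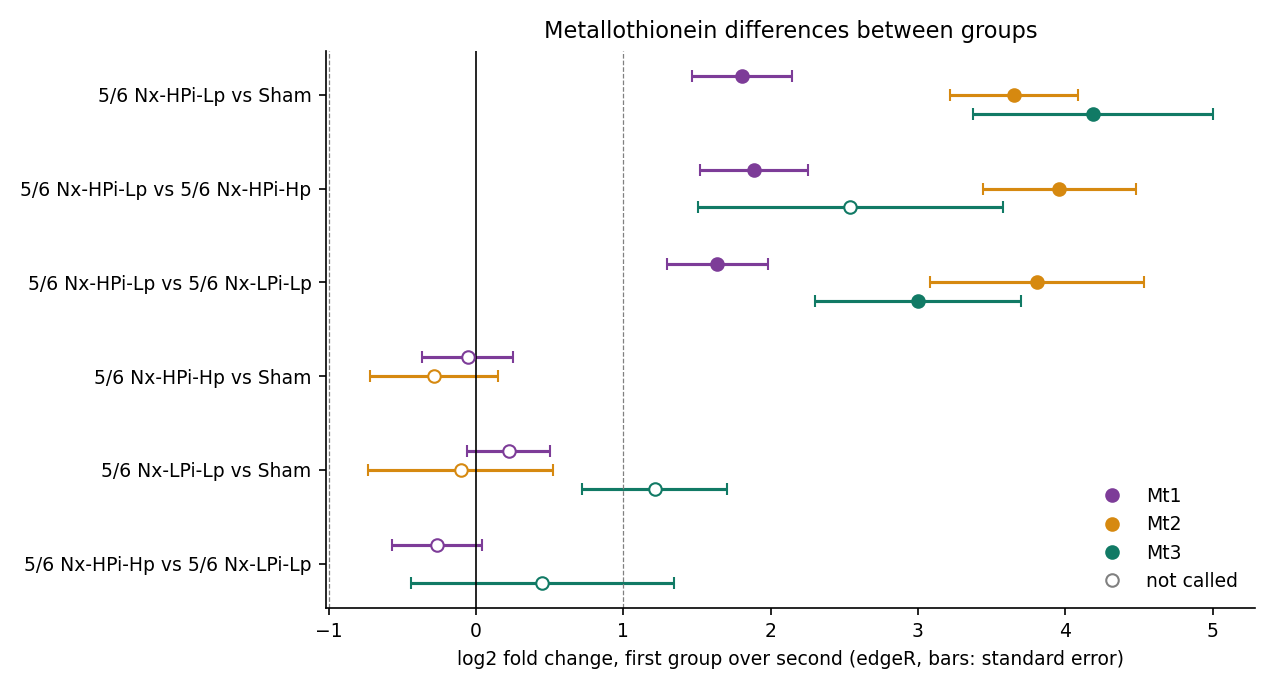
Log2 fold change of each member in each of the 6 comparisons of groups, first group over second, with bars for 1 standard error of the edgeR fit, filled points for called differences and dashed lines at a log2 fold change of 1 in either direction. Filled points stand only in the 3 comparisons of 5/6 Nx-HPi-Lp, from 1.64 to 4.19, and comparisons with too few counts for the edgeR filter have no point.

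The 3 other groups were also compared with each other, and no member was called. In 5/6 Nx-HPi-Hp against Sham, where 12.2% of genes were called (9.41% higher and 2.75% lower) and 33.8% did not overlap, both members tested overlapped. Mt1 differed by −0.06 (SE 0.31) and Mt2 by −0.29 (SE 0.43) on the log2 scale there, and Mt3 had too few counts for the edgeR filter, while DESeq2 tested it without a call. In 5/6 Nx-LPi-Lp against Sham, with 10.9% of genes called (8.79% higher and 2.08% lower), Mt1 differed by 0.22 (SE 0.28) and Mt2 by −0.10 (SE 0.63). The Mt3 log2 difference in that comparison was 1.21 (SE 0.49, adjusted p = 0.0851 by the edgeR quasi-likelihood test, Benjamini-Hochberg adjusted), and its groups did not overlap, as for 35.6% of genes. At an unadjusted p under 0.05 edgeR and DESeq2 each passed 1 member, Mt3, there, and each passed 0 members in 5/6 Nx-HPi-Hp against Sham. In 5/6 Nx-HPi-Hp against 5/6 Nx-LPi-Lp, edgeR called 0% of the 15850 genes tested, with 1420 at an unadjusted p under 0.05, and DESeq2 called 78. Mt1 differed there by −0.27 (SE 0.30) and Mt3 by 0.45 (SE 0.89), Mt2 had too few counts for the edgeR filter, and 0 members passed an unadjusted p of 0.05 by edgeR or by DESeq2.

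Mt2 differed by more than Mt1 between 5/6 Nx-HPi-Lp and the other groups, and the ratio of the 2 genes within a library does not depend on how libraries are scaled. It does depend on which bases were counted, 1246 for Mt1 and, for Mt2, the 156 free of Gm45774. Whether read coverage along the 2 genes differed between groups was not tested. There were 72.5 to 127 Mt1 counts per Mt2 count in 5/6 Nx-HPi-Lp, 218 to 409 in Sham, 184 to 756 in 5/6 Nx-HPi-Hp and 193 to 1071 in 5/6 Nx-LPi-Lp. All 4 of the 5/6 Nx-HPi-Lp libraries lay below the 12 others. The log2 ratio of Mt2 to Mt1, with 0.5 added to each count, averaged −6.38 ± 0.39 in 5/6 Nx-HPi-Lp, −8.07 ± 0.39 in Sham, −8.32 ± 0.82 in 5/6 Nx-HPi-Hp and −8.88 ± 0.98 in 5/6 Nx-LPi-Lp (SD, n = 4 each). The differences of 1.69, 1.94 and 2.49 each had p = 0.0286 in a two-sided exact permutation test, the smallest that 4 against 4 libraries can give, and 0.0571 after Benjamini-Hochberg adjustment over the 6 comparisons. They do not pass the adjusted threshold. Among the other 3 groups the differences were −0.25, −0.81 and 0.56, with adjusted exact permutation p of 0.629, 0.343 and 0.48.

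Within groups, Mt1 and Mt3 ran in opposite directions. Deviations of log2(CPM + 1) from the group mean were compared over the 16 libraries, with two-sided exact permutation within groups (331776 orders) and adjustment over the 3 pairs of members. For Mt1 and Mt3 Pearson's r was −0.78 (exact permutation p = 0.00197, adjusted 0.00592) and Spearman's rank correlation −0.72 (adjusted exact p = 0.0405). Without the 2 libraries farthest from the median of Mt1, which were 5/6 Nx-HPi-Lp replicates 2 and 3, r was −0.69 (adjusted exact p = 0.0464). By group the r of these 2 genes was −0.97 in 5/6 Nx-HPi-Lp, −0.96 in 5/6 Nx-HPi-Hp, −0.83 in 5/6 Nx-LPi-Lp and 0.00 in Sham, each over 4 libraries and given as a description. For Mt1 and Mt2 r was 0.67 (exact permutation p = 0.0205, adjusted 0.0308) and the rank correlation 0.61 (adjusted exact p = 0.0608), but without the same pair of libraries r was 0.45 (adjusted exact p = 0.186), so this relation rested on them. For Mt2 and Mt3 r was −0.66 and the rank correlation −0.64, with adjusted exact permutation p of 0.088 and 0.0608, and r without the same pair of libraries was −0.15 (adjusted exact p = 0.538).

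**Figure D4:**
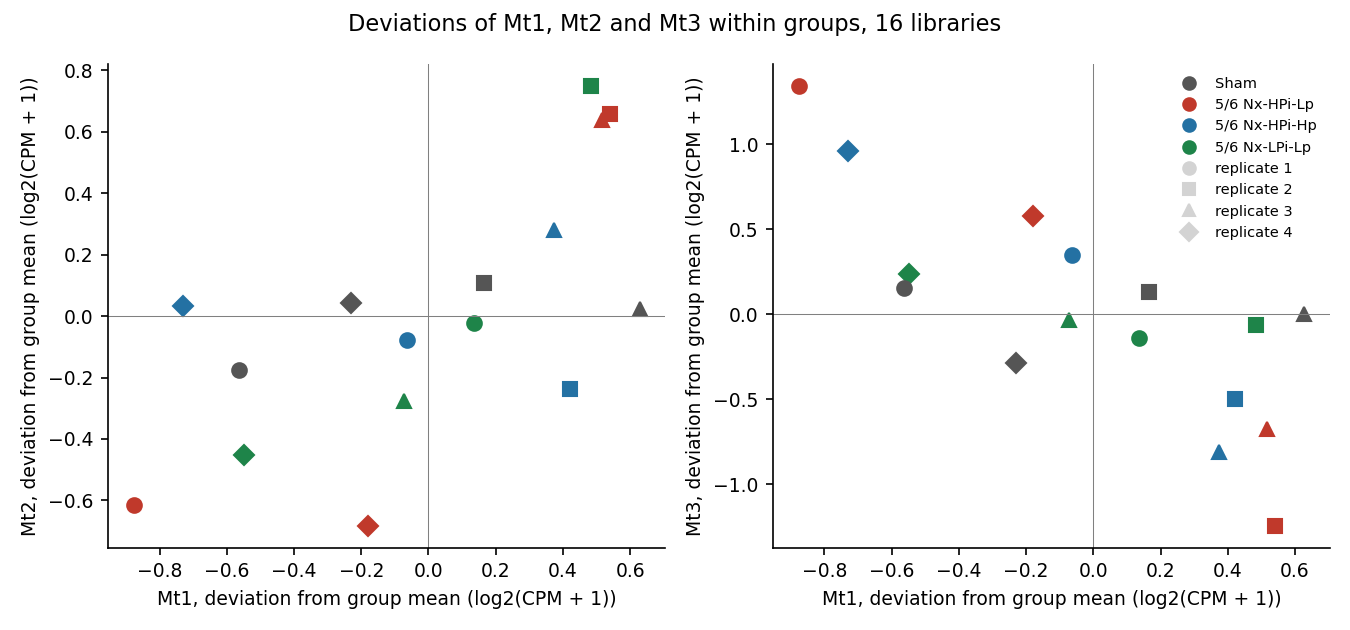
Deviation from the group mean of log2(CPM + 1) for Mt2 (left) and Mt3 (right) against that for Mt1, 16 libraries with color for group and shape for replicate. Mt2 rises with Mt1 (r = 0.67) and Mt3 falls with it (r = −0.78).

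Mt3 is a gene of nerve cells, and the levels of nerve markers moved largely with it in the 5/6 Nx groups. The 5 markers of sympathetic neurons, Th, Dbh, Snap25, Stmn2 and Prph, summed to 11.97 to 13.8 CPM in Sham and to 1044, 20.7, 185 and 734 CPM in replicates 1 to 4 of 5/6 Nx-HPi-Lp. The same 2 libraries, replicates 1 and 4, thus led both Mt3 and the neuron markers. In 5/6 Nx-HPi-Hp the sums were 19.5, 76.35, 16.05 and 139.8 CPM, and the highest and the lowest were also the highest and the lowest in Mt3. In 5/6 Nx-LPi-Lp they were 7.85, 11.2, 49.01 and 94.7 CPM, in the same order as Mt3. Of the 5 markers, 2 had enough counts to be tested against Sham and both were called higher in 5/6 Nx-HPi-Lp. In 5/6 Nx-HPi-Hp against Sham 2 of 3 tested were called higher, and in 5/6 Nx-LPi-Lp against Sham 0 of 2. Of all genes, 15%, 9.41% and 8.79% were called higher in these comparisons in turn. Between 5/6 Nx-HPi-Lp and each other 5/6 Nx group all 5 were tested and 1 was called higher. Stmn2 made up most of the Sham sums, at 10.4 to 11.9 CPM. In Sham Snap25 was at 0 in 3 libraries, Th in 2 and Dbh in 1, while in 5/6 Nx-HPi-Lp Th and Dbh were both at 0 in replicate 2, in which Mt3 was at 1.26 CPM. Schwann cell markers, 5 genes of the glia that ensheathe nerves, summed to 27.3 to 35.7 CPM in Sham and 56.4 to 531 CPM in 5/6 Nx-HPi-Lp. The sums were 72.1 to 150 CPM in 5/6 Nx-HPi-Hp and 49.2 to 104 CPM in 5/6 Nx-LPi-Lp. Against Sham 5 of 5 were called higher in 5/6 Nx-HPi-Lp and 5/6 Nx-HPi-Hp, and 4 of 5 in 5/6 Nx-LPi-Lp. Between 5/6 Nx-HPi-Lp and either other 5/6 Nx group 0 of 5 were called. The part of neuron and Schwann cell markers in the Mt3 result was not tested.

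**Figure D5:**
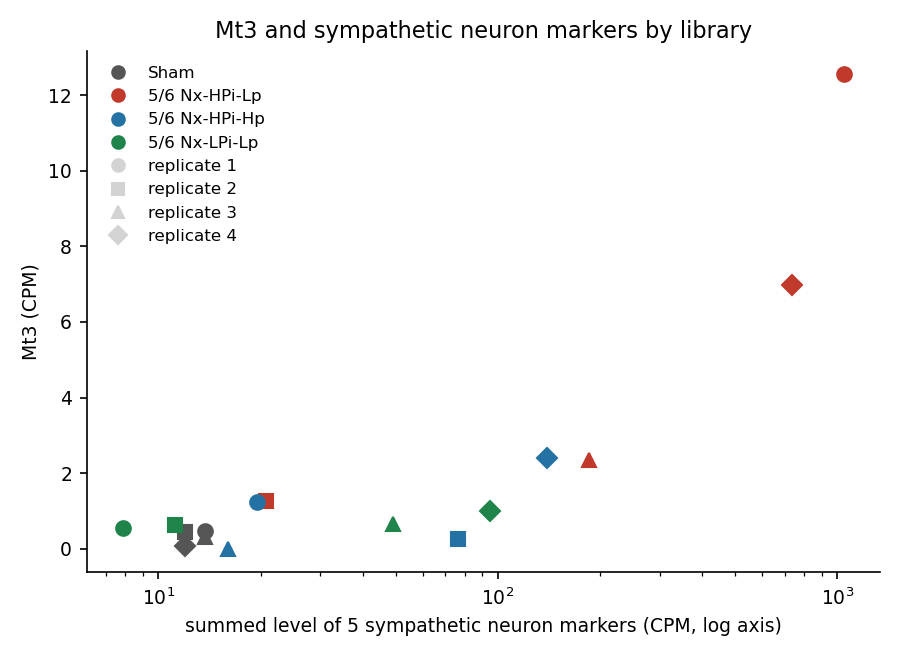
Level of Mt3 (CPM, linear axis) against the summed level of 5 sympathetic neuron markers (CPM, log axis) in each library, with color for group and shape for replicate. The 2 libraries with the highest marker sums, 1044 and 734 CPM, also have the highest Mt3, 12.5 and 6.97 CPM.

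The genes with the pattern most like each member were taken as the 5 with the highest Pearson r of log2(CPM + 1) over the 16 libraries, among 17443 genes. All points share libraries and group differences, so these values are descriptions. For Mt1 they were Rhou, a small GTPase (r = 0.93), Hmox1, the heme-degrading enzyme heme oxygenase (0.92), the signaling adaptor Nck1 (0.92), the cytokine gene Il33 (0.91) and Rai14 (0.91). Mt2 ranked eighth for Mt1 (r = 0.91) and Mt3 ranked 3772 (r = 0.37). For Mt2 they were the serine protease inhibitor Serpina3i (0.98), Olr1, a receptor for oxidized low-density lipoprotein (0.97), Il33 (0.97), the oncostatin M receptor Osmr (0.97) and Serpina3n (0.97). Serpina3i and Serpina3n belong to a family of close copies whose reads the counting could have split. Serpina3n lay at 18.1 to 25.4 CPM in Sham and 315 to 954 CPM in 5/6 Nx-HPi-Lp, and Il33 at 12.7 to 22.8 and 80.8 to 219 CPM. For Mt3 they were Ctnna2, a neuronal alpha-catenin (0.97), Gprin1, a gene of neurite outgrowth (0.97), the sugar transporter Slc45a1 (0.97), Slc29a4, a monoamine transporter (0.96), and Pnmal1 (0.96). Ctnna2 was at 0 in all 4 Sham libraries and at 0.541 to 11.7 CPM in 5/6 Nx-HPi-Lp. No gene was among the 5 of both Mt3 and another member, and Il33 was shared by Mt1 and Mt2.

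Genes of zinc handling were compared next, since metallothioneins store this metal. For this and the other lists the share of all genes called higher and lower in 5/6 Nx-HPi-Lp was 15% and 7.18% against Sham, 5.01% and 3.11% against 5/6 Nx-HPi-Hp, and 7.9% and 3.98% against 5/6 Nx-LPi-Lp. Of 25 genes (Mtf1 and the Slc30 and Slc39 transporters), 20 could be tested against Sham, and 3 were higher and 0 lower in 5/6 Nx-HPi-Lp, with a median log2 difference of 0.13 beside −0.003 for all genes. Mtf1 was at 11.7 CPM in 5/6 Nx-HPi-Lp and 14.8 CPM in Sham (log2 difference −0.29, SE 0.18). Slc30a1, which exports zinc and is itself induced by it through Mtf1, was at 17.9 and 16.9 CPM (0.14, SE 0.17). Neither gene was called in any of the 3 comparisons of 5/6 Nx-HPi-Lp. The 3 that rose against Sham, a share of those tested about equal to that of all genes, bring zinc into the cytosol. They were Slc39a8 (1.77, SE 0.31), Slc39a11 (1.15, SE 0.16) and Slc39a5 (1.07, SE 0.35), with adjusted p of 0.00158, 0.000459 and 0.034 by the edgeR quasi-likelihood test, Benjamini-Hochberg adjusted, and none of them was called against 5/6 Nx-HPi-Hp or 5/6 Nx-LPi-Lp. Against each of those groups 2 of 20 zinc genes were higher and 0 lower. One was Slc39a14, the zinc importer known from the acute-phase response, at 1.51 (SE 0.43) and 1.35 (SE 0.35), while against Sham it differed by 0.57 (SE 0.32, adjusted p = 0.176 by edgeR).

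Genes of copper handling, the other metal that these proteins bind, were called in part. Of 11 that could be tested of 12, 4 were higher and 0 lower in 5/6 Nx-HPi-Lp than in Sham, 3 and 0 than in 5/6 Nx-HPi-Hp, and 5 and 1 than in 5/6 Nx-LPi-Lp. The metalloreductase Steap4 was at 15.5 to 25.4 CPM in Sham and 76.0 to 262 CPM in 5/6 Nx-HPi-Lp, a log2 difference of 3.00 (SE 0.34). The copper importer Slc31a1 differed from Sham by 2.10 (SE 0.26) and the copper pump Atp7a by 1.45 (SE 0.35). Slc31a1 and Atp7a were also higher in 5/6 Nx-HPi-Lp than in 5/6 Nx-HPi-Hp (1.42 and 1.66) and 5/6 Nx-LPi-Lp (1.25 and 1.56). Steap4 was called against 5/6 Nx-LPi-Lp (2.14) and not against 5/6 Nx-HPi-Hp (1.59, SE 0.53, adjusted p = 0.0742 by the edgeR quasi-likelihood test, Benjamini-Hochberg adjusted).

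Genes induced by glucocorticoids, which raise Mt1 and Mt2, were called in part. Of 10 tested, 4 were higher and 0 lower in 5/6 Nx-HPi-Lp than in Sham (median log2 difference 0.82), 5 and 1 than in 5/6 Nx-HPi-Hp (1.01), and 3 and 1 than in 5/6 Nx-LPi-Lp (0.66). Fkbp5, which encodes a co-chaperone of the glucocorticoid receptor, rose by 1.77 against Sham (SE 0.45), by 2.42 against 5/6 Nx-HPi-Hp (SE 0.22) and by 1.96 against 5/6 Nx-LPi-Lp (SE 0.24). Tsc22d3 (GILZ) rose by 1.38 against Sham (SE 0.43) and by 1.28 against 5/6 Nx-HPi-Hp (SE 0.25), and differed by 0.89 from 5/6 Nx-LPi-Lp (SE 0.42, not called). The cell cycle inhibitor Cdkn1a rose in all 3 comparisons, by 1.01, 1.61 and 1.46. Pdk4, a kinase that restrains glucose oxidation, rose by 1.01 against Sham but fell by 1.47 against 5/6 Nx-LPi-Lp.

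Genes of interleukin-6 and Stat3 signaling, another known route to Mt1 and Mt2, were mostly called. Of 14 genes, 13 could be tested. In 5/6 Nx-HPi-Lp 9 were higher and 0 lower than in Sham, 7 and 0 than in 5/6 Nx-HPi-Hp, and 10 and 0 than in 5/6 Nx-LPi-Lp, with median log2 differences of 1.81, 1.52 and 2.25. The iron-siderophore binder Lcn2 was at 0.553 to 1.79 CPM in Sham and 11.8 to 160 CPM in 5/6 Nx-HPi-Lp (log2 difference 6.54, SE 0.79). The acute-phase gene Saa3 differed by 6.15 (SE 1.11) and Timp1, an inhibitor of matrix metalloproteinases, by 4.77 (SE 0.51). All 3 were also called higher in 5/6 Nx-HPi-Lp than in either other 5/6 Nx group, by 4.31 to 9.38 on the log2 scale. Genes of the antioxidant factor NRF2 split. Of 10 tested, 2 were higher and 1 lower than in Sham, 3 and 0 than in 5/6 Nx-HPi-Hp, and 3 and 2 than in 5/6 Nx-LPi-Lp. Hmox1 rose from 6.17 to 9.44 CPM in Sham to 39.0 to 222 CPM in 5/6 Nx-HPi-Lp (3.94, SE 0.53), and Slc7a11, the cystine importer, by 3.46 (SE 0.71). Nqo1, a quinone reductase and a usual NRF2 target, was lower than in Sham (9.74 against 27.5 CPM, −1.45, SE 0.16). Hmox1 and Slc7a11 were also called higher than in 5/6 Nx-HPi-Hp (3.30 and 3.75) and in 5/6 Nx-LPi-Lp (3.51 and 4.63), while Nqo1, at −0.34 and −0.81, was called against neither.

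None of the genes around the cluster that could be tested was called. Within 100 kb, Nup93, Bbs2, Ogfod1, Rpl10-ps5 and Gm45774 had enough counts, and the finding held in all 6 comparisons. Against Sham the nuclear pore gene Nup93 differed by 0.00 (SE 0.10), the ciliary gene Bbs2 by −0.33 (SE 0.29) and Ogfod1, a ribosomal prolyl hydroxylase, by −0.21 (SE 0.13) on the log2 scale. The pseudogene Rpl10-ps5 differed by −0.81 (SE 0.24, adjusted p = 0.0226 by edgeR), less than the fold required for a call.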

How the data were processed

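Total RNA from the aorta of 16 mice (4 per group, 1 library per animal) was enriched for poly-A messenger RNA and sequenced. The authors deposited raw read counts per gene, made by alignment to mm10 and counting with featureCounts 1.5.0-p3, and FPKM values per gene. Aligner options, strand and multi-mapping settings were not given in the sources used here, and reads shared between close metallothionein copies could be uncertain. Counts were tested with edgeR 4.0.16 in R 4.3.3 (filterByExpr, TMM scaling, quasi-likelihood test, Benjamini-Hochberg adjustment over all genes tested, 8 libraries per fit), and levels are CPM after TMM scaling of the 16 libraries. SE is the log2 fold change divided by the square root of F. A call needed an adjusted p not above 0.05 and a log2 fold change of 1 or more in size. Ratios and relations used exact permutation tests. On simulated data for 5/6 Nx-HPi-Lp vs Sham, 149 of 200 genes changed by a log2 fold of 2 were recovered, with 8 false calls among 16164 genes.

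The members and gene lists were chosen with earlier results of these data known. Named genes were the members, genes within 100 kb, at most 3 genes called against Sham per list with the largest change, Mtf1, Slc30a1 and Slc39a14, and the 5 genes most like each member; Pdk4 was added after its value, nearly equal to that of Cdkn1a, was seen, and Hmox1 came in by 2 parts of this rule. Gm45774 is one of the genes within 100 kb. GENCODE vM21 annotation, mm10, matched 54409 of 54532 genes. No 2 libraries of a group were copies of each other (lowest chi-square per gene 21.95). Alternatives were DESeq2 1.42.0, limma 3.58.1 on log2(FPKM + 1) and log2(FPKM + 0.1), other scaling and filters, a fit of all 16 libraries, the replicate number as a block, and each library left out. Leaving out both deep 5/6 Nx-HPi-Lp libraries, or both others, was chosen after seeing the data. An item withheld from the marker lists is not reported here.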

Additional observations from a re-analysis of the deposited data

How the results depend on the processing

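Depth set the limits for Mt2 and Mt3, with 3 to 26 counts of Mt2 and 0 to 44 of Mt3 per library outside 5/6 Nx-HPi-Lp. Apart from the leave-one-out fits, 151 of 162 values kept their direction and side of the threshold, and of the leave-one-out values 169 of 176 did. The ratio of Mt2 to Mt1 was not tested with the replicate block or with 1 library left out. Its values there counted as kept if their direction held and they moved by less than the pooled SD. The exceptions follow, and their cause was not tested. For Mt3 against 5/6 Nx-HPi-Hp, DESeq2 gave 2.57 (adjusted p = 0.0292) and edgeR on all 16 libraries 2.57 (adjusted p = 0.0394), both called. Against 5/6 Nx-LPi-Lp, the Mt3 call was lost with limma on log2(FPKM + 1) (1.63, adjusted p = 0.0525). Without both deep 5/6 Nx-HPi-Lp libraries the calls lost were Mt1 against 5/6 Nx-HPi-Hp (1.28) and Mt1 and Mt2 against 5/6 Nx-LPi-Lp (1.01 and 2.85), and with the 2 others left out Mt3 against 5/6 Nx-LPi-Lp (1.35). The Mt1 and Mt2 relation without its 2 farthest libraries was 0.45. Changes of direction occurred only among differences that were not called: Mt3 in 5/6 Nx-HPi-Hp against 5/6 Nx-LPi-Lp was −0.43 with limma on log2(FPKM + 0.1), and −0.46 without 5/6 Nx-HPi-Hp replicate 4. The log2 ratio of Mt2 to Mt1 in 5/6 Nx-HPi-Hp against Sham, −0.25 with all libraries, was 0.11 without 5/6 Nx-HPi-Hp replicate 2, with −0.535 to 0.109 over the libraries left out 1 at a time. Mt1 in 5/6 Nx-HPi-Hp against Sham was 0.19 without Sham replicate 3 and 0.14 without 5/6 Nx-HPi-Hp replicate 4. Mt2 in 5/6 Nx-LPi-Lp against Sham was 0.10 and 0.26 without 5/6 Nx-LPi-Lp replicates 3 and 4.

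In no comparison did all 4 pairs of same-numbered libraries have deviations correlated over 0.1, and the main fits treated libraries as unpaired. Whether same-numbered libraries share more than a number is not settled by this check. Of 24 pairs 4 were over 0.1, and 3 of these were in 5/6 Nx-HPi-Hp against 5/6 Nx-LPi-Lp (−0.07 to 0.54), where 4 of 8 libraries were closest to the one of their own number, against 0 to 3 of 8 in the other comparisons. With the replicate block Mt3 against 5/6 Nx-LPi-Lp was 2.54 (adjusted p = 0.0536, edgeR) and Mt3 in 5/6 Nx-HPi-Hp against 5/6 Nx-LPi-Lp −0.16, and the block changed no other call of a member. It moved the count of all genes called from 1315 to 371 against 5/6 Nx-HPi-Hp and from 1931 to 1271 against 5/6 Nx-LPi-Lp.

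Leaving out 1 library at a time gave, for 5/6 Nx-HPi-Lp against Sham, against 5/6 Nx-HPi-Hp and against 5/6 Nx-LPi-Lp in turn, 1.63 to 2.05, 1.69 to 2.11 and 1.44 to 1.87 for Mt1, 3.42 to 3.89, 3.71 to 4.23 and 3.46 to 4.76 for Mt2, and 3.47 to 4.53, 1.82 to 3.46 and 2.30 to 3.33 for Mt3. In 5/6 Nx-HPi-Hp against Sham the ranges were −0.23 to 0.19 for Mt1 and −0.58 to −0.12 for Mt2, in 5/6 Nx-LPi-Lp against Sham 0.03 to 0.46, −1.10 to 0.26 and 0.88 to 1.43 for Mt1, Mt2 and Mt3, and in 5/6 Nx-HPi-Hp against 5/6 Nx-LPi-Lp −0.43 to −0.07 for Mt1 and −0.46 to 0.85 for Mt3. Without 5/6 Nx-LPi-Lp replicate 3 the Mt3 call against 5/6 Nx-LPi-Lp was lost (2.99).

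Counts of all genes called moved by over 1.5 times with limma on log2(FPKM + 1), from 3666 to 2057 against Sham, 1315 to 783 against 5/6 Nx-HPi-Hp, 1931 to 1068 against 5/6 Nx-LPi-Lp, 1932 to 878 in 5/6 Nx-HPi-Hp against Sham and 1748 to 870 in 5/6 Nx-LPi-Lp against Sham. Against 5/6 Nx-HPi-Hp it was 2094 with DESeq2, 2011 with all 16 libraries, 638 without 5/6 Nx-HPi-Lp replicate 4, 682 without 5/6 Nx-HPi-Hp replicate 2 and 744 without both deep libraries. It was 1278 and 1294 against 5/6 Nx-LPi-Lp when 5/6 Nx-HPi-Lp replicate 4 or 5/6 Nx-LPi-Lp replicate 3 was left out, and in 5/6 Nx-HPi-Hp against Sham 1091 without Sham replicate 2 and 3161 without 5/6 Nx-HPi-Hp replicate 4. In 5/6 Nx-HPi-Hp against 5/6 Nx-LPi-Lp it was 0 with edgeR (1420 at an unadjusted p under 0.05), 78 with DESeq2, 12 without a count filter and 10 with the block.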

Other observations

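Mt2 was not alone in lying under exons of the opposite strand, and genes covered at least as far but not wholly, with no exon of another gene on their own strand, were read together. There were 309 such genes with Mt2 included, most with too few counts. Of the 26 tested in 5/6 Nx-HPi-Lp against Sham, 3 were called higher, Mt2 among them (11.5%, against 15% of all genes) and 0 lower, with a median log2 difference of 0.00. Of 23 tested against 5/6 Nx-HPi-Hp, 1 was higher, Mt2 itself, and of 25 tested against 5/6 Nx-LPi-Lp, 1 was higher, again Mt2, and 1 lower.

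Several other cell types differed between the groups in their markers. Fibroblast markers summed to 1509 to 2413 CPM in Sham and 2683 to 11710 CPM in 5/6 Nx-HPi-Lp, and 3 of 5 were called higher. The 5 adipocyte markers summed to 476 to 1216 CPM in Sham and 2817 to 5091 CPM in 5/6 Nx-HPi-Lp, with 4 called higher. The adipocyte sums were 1041 to 6315 CPM in 5/6 Nx-HPi-Hp and 2494 to 6911 CPM in 5/6 Nx-LPi-Lp. In each of these groups 5 of 5 were called higher than in Sham. Between 5/6 Nx-HPi-Lp and either of them 0 of 5 were called. Neutrophil markers summed to at most 4.55 CPM in Sham and 11.8 to 29.2 CPM in 5/6 Nx-HPi-Lp. Only 3 of these 5 genes had enough counts to be tested, and 3 were called higher. Ly6g, also on this list, was at 0 in all 4 libraries of each of these groups. Hepatocyte markers, from a tissue rich in Mt1 and Mt2, summed to 0.523 to 18.8 CPM in 5/6 Nx-HPi-Lp and 0.437 to 19.1 CPM in Sham. Their highest sums were in 5/6 Nx-HPi-Hp, at 103.6 CPM in replicate 3 and 26.05 CPM in replicate 2, and in 5/6 Nx-LPi-Lp they reached at most 5.795 CPM. Kidney tubule markers summed to at most 0.757 CPM in 5/6 Nx-HPi-Lp. Pancreas acinar markers summed to 4.90 to 6.91 CPM in Sham and to 24.0, 13.9, 19.3 and 122 CPM in replicates 1 to 4 of 5/6 Nx-HPi-Lp. The sums were 3.60 to 8.53 CPM in 5/6 Nx-HPi-Hp and 12.5 to 23.5 CPM in 5/6 Nx-LPi-Lp. Their part in the metallothionein differences was not tested.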
